A study of Homo sapiens with 9 samples.

Results

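The genes of cholesterol and fatty acid synthesis that sterol regulatory element-binding proteins (SREBPs) control were followed in human adrenocortical NCI-H295R cells. The 41 genes are a given list, with 24 in the sterol arm and 17 in the fatty acid arm, and each is represented by its brightest probe set among those that the array's annotation assigns to that gene alone. Of the 41, 38 could be read in this way, 22 of the sterol arm and 16 of the fatty acid arm, out of 18417 named genes. FDFT1 and ACSL3 were not analysed here, and HSD17B7 was measured only by a probe set shared with its pseudogene HSD17B7P2 and is not counted. All samples come from this 1 carcinoma line. After 24 h of plating, cells spent 48 h in normal growth, in serum starvation, or in serum starvation with 10 mM metformin, with 3 arrays (A, B and C) per condition. The growth medium held NU-I serum together with insulin, transferrin and selenium, and the starvation medium held none of these, so that the loss of serum and the loss of insulin cannot be told apart here. The paper states that its arrays of normal growth and starvation came from 3 independent experiments. It does not say whether arrays of the same letter share an experiment. For the metformin group the labels alone are at hand, without a statement on separate cultures. Its p values therefore rest on a spread among arrays that may be purely technical.

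SREBPs are made as precursors in the membrane of the endoplasmic reticulum. SCAP escorts them to the Golgi, where proteases release the part that enters the nucleus, and INSIG1 and INSIG2 hold SCAP back when sterols are plentiful. SREBP2, the product of SREBF2, acts mainly on genes of cholesterol synthesis and uptake, and SREBP1, the product of SREBF1, acts mainly on genes of fatty acid synthesis, with transcription of SREBF1 itself driven by insulin and by the oxysterol receptors LXR. In the adrenal cortex cholesterol is the starting material of every steroid hormone. Metformin is a biguanide drug used against diabetes.

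The sequences just before the transcription start are shown for both SREBP genes and for a pair of post-squalene enzymes, because the named pathway acts at such sites. The pair was called higher under starvation with metformin than under normal growth. They come from RefSeq (GRCh38.p14), cover the 250 bases before the start, read 5′ to 3′ on the gene's strand, and carry in capitals each match on either strand to TCACNCCAC (a sterol regulatory element), CCAAT (the letters of NF-Y, ATTGG on the other strand), GGGCGG (the letters of Sp1, CCGCCC on the other strand) and CACGTG (an E-box). SREBF1 is on the minus strand at chr17:17836987-17837236, SREBF2 on the plus strand at chr22:41832855-41833104, MSMO1 on the plus strand at chr4:165327419-165327668 and SC5D, at the first of its starts, on the plus strand at chr11:121292521-121292770. No matches overlap in these windows.
SREBF1: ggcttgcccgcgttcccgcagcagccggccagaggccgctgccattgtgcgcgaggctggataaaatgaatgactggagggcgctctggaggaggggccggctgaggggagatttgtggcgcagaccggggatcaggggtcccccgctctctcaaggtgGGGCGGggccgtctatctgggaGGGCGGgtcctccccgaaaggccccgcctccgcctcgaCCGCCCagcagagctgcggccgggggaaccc
SREBF2: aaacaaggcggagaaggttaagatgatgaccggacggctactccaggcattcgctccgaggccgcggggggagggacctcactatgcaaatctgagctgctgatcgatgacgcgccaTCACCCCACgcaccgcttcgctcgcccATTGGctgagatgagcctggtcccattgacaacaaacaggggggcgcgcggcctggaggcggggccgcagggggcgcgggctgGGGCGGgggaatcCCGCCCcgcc
MSMO1: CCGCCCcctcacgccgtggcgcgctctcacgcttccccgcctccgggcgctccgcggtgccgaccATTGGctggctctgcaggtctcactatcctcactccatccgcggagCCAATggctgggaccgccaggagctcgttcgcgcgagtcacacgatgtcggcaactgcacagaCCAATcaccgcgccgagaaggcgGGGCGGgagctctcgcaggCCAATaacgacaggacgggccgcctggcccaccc
SC5D: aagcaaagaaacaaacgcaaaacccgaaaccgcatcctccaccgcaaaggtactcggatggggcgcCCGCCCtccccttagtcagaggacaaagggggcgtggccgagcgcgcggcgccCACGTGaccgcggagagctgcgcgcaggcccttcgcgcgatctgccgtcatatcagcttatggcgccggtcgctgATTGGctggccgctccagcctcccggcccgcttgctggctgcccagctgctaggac
Among the members with a window, TCACNCCAC was found in 1 of 21 sterol arm genes, SREBF2, as TCACCCCAC from 133 to 125 bases before the start, and in no gene of the fatty acid arm, against 1.09% of all genes. CCAAT was found in 17 of 21 sterol arm genes (81.0%) and 9 of 15 fatty acid arm genes (60.0%), against 37.0% of all genes. In the windows shown, MSMO1 carried CCAAT at 4 places, SC5D and SREBF2 at 1, and SREBF1 at none. Which SREBP1 isoform the SREBF1 window precedes was not examined. GGGCGG was found in 20 of 21 and 13 of 15 genes, against 46.2% of all genes, and CACGTG in 3 of 21 and 1 of 15, against 7.73%. A match describes the letters only.

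Values are log2 expression values, so that a difference of 1 is a change of 2-fold in signal. Array medians over 33297 probe sets lay between 6.04 and 6.16. The number of arrays, 3 in each group, limits the precision, and an exact two-sided permutation of 3 against 3 arrays cannot give a p below 0.1. Differences were tested with limma over all probe sets, and a gene is called here at a Benjamini-Hochberg adjusted p under 0.05. Adrenocortical markers were bright as a list (mean of 11 genes between 8.35 and 8.99 on all arrays), with STAR, CYP11A1 and CYP17A1 well above the median of every array, and 3 of the 11 (MC2R, CYP11B1 and MRAP) had a mean over the 9 arrays below every array median. The list's array means lay at 8.88 to 8.99 under normal growth, up to 8.64 under starvation and 8.35 to 8.57 with metformin. HSD3B2 fell in each comparison, NR5A1 and SULT2A1 fell and MC2R rose with metformin against either group, and INHA fell with metformin against normal growth. The call of HSD3B2 with starvation was lost without normal growth A, B or C or starved C (adjusted p from 0.0861 to 0.121), and each marker call against starvation was lost without any starved array or metformin A (0.0564 to 0.161). Against normal growth, the calls of NR5A1, HSD3B2 and SULT2A1 held without any single array, MC2R's was lost without any normal growth array or metformin A (0.0646 to 0.0868) and INHA's without any normal growth array or metformin B (0.0507 to 0.0981). The part of these markers in the lipid gene results was not tested. Means below every array median were also found for 6 of 6 endothelial, 5 of 6 hepatocyte, 4 of 5 adipocyte, 4 of 6 immune, 5 of 8 fibroblast and 3 of 5 epithelial markers. Among these lists 1 gene was called in 1 comparison, EPCAM, where 6.16% of all genes were called higher. It was higher by 0.57 with metformin than under normal growth, a call lost without any normal growth array or metformin A or B (adjusted p from 0.0833 to 0.133). The largest changes in these lists that did not pass were -0.92 for the fibroblast marker FAP with starvation (adjusted p = 0.146) and 0.77 for the B cell marker CD79A with metformin against starvation (adjusted p = 0.164). In bulk RNA, fewer cells of a type and less RNA per cell cannot be told apart.

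In the fatty acid arm, the gene of the transcription factor SREBP1 and the delta-6 desaturase gene FADS2 were lower with metformin than under starvation alone and than under normal growth. Of these calls, only that of SREBF1 against normal growth held without any single array. The other desaturases, the elongases and the fatty acid synthase had negative changes with metformin that did not pass the test. In the sterol arm, SREBF2 lay between 9.44 and 9.59 on all 9 arrays. Between normal growth and starvation with metformin, 3 enzymes (IDI1, MSMO1 and SC5D) rose and 1 (PMVK) fell. Over all genes, 6.16% were called higher and 6.36% lower in that comparison. Each of these sterol arm calls was lost on leaving out any 1 normal growth array, and no gene of the arm was called in the other comparisons. The called differences were small in the sterol arm, at most 1.28-fold against 2.34-fold for SREBF1. The largest sterol arm change in size, -0.47 for MVK with metformin against starvation, was not called. The difference between the arms was not tested.

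**Figure D1:**
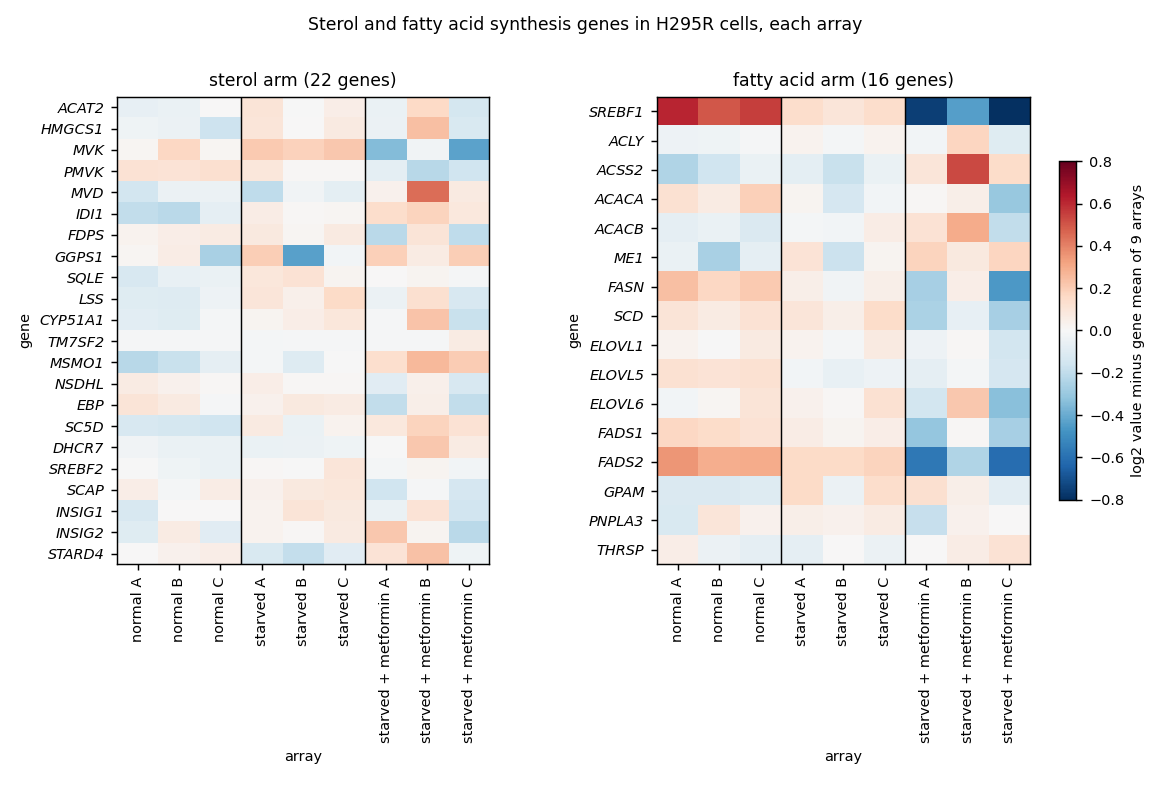
Heat map of the 22 sterol arm genes (left) and 16 fatty acid arm genes (right), 1 row per gene and 1 column per array; colour is the log2 value minus the gene's mean over the 9 arrays. SREBF1 and FADS2 run from red under normal growth to blue with metformin, while most other rows of both arms stay pale.

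Serum starvation was compared with normal growth to ask which of these genes respond to the loss of serum and its supplements. None of the 38 genes passed limma's test, against 0.163% of all named genes called lower and 0.0652% called higher. Without adjustment, p lay under 0.05 for 6 sterol arm genes that were higher (HMGCS1, IDI1, SQLE, LSS, CYP51A1 and SC5D) and 1 that was lower (STARD4). In the fatty acid arm it did so for 1 gene that was higher (GPAM) and 6 that were lower (SREBF1, ACACA, FASN, ELOVL5, FADS1 and FADS2), against 4.12% of all genes higher and 5.77% lower. The methods' t-test after adjustment also called 0 in both arms, and limma with a trended and robust variance called 0 in the sterol arm and 1, SREBF1, in the fatty acid arm. Starved arrays lay above all normal growth arrays in 8 of 22 sterol arm genes and 2 of 16 fatty acid arm genes (6.86% of all genes), and below them in 2 and 6 genes (9.62% of all genes). The median change was 0.07 in the sterol arm and -0.0003 in the fatty acid arm, beside -0.0007 over all genes.

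Starved cells with metformin were compared with starvation alone, and with normal growth. The comparison with normal growth holds the loss of serum and its supplements together with the drug, which cannot be told apart in it. Changes given with metformin against normal growth are of this kind throughout. Against starvation alone, limma called 0 of 22 sterol arm genes and 2 of 16 fatty acid arm genes, both lower, where 2.89% of all genes were called lower and 3.14% higher. In the sterol arm, unadjusted p lay under 0.05 for 2 genes that were higher (MSMO1 and STARD4) and 3 that were lower (MVK, PMVK and SCAP). In the fatty acid arm it did so for 1 that was higher (ACSS2) and 4 that were lower (SREBF1, SCD, FADS1 and FADS2), where all genes had 12.3% higher and 11.3% lower. The methods' t-test called 0 in both arms after adjustment. The trended and robust fit called 2 in the sterol arm, MSMO1 higher and MVK lower, and 3 in the fatty acid arm, SREBF1, FADS2 and SCD (adjusted p of SCD 0.0384), all lower, where it called 9.74% of all genes against 6.03% for the fit used throughout. The groups did not overlap in 6 sterol and 1 fatty acid arm genes that were higher (15.7% of all genes) and 4 and 4 that were lower (15.2%). Against normal growth, 3 sterol arm genes were called higher and 1 lower, and 2 fatty acid arm genes lower, where 6.16% of all genes were called higher and 6.36% lower. Unadjusted p lay under 0.05 for 3 sterol and 2 fatty acid arm genes that were higher (13.5% of all genes) and for 2 and 6 that were lower (15.0%). By the methods' t-test after adjustment SREBF1 and SC5D kept their calls against normal growth (adjusted p = 0.0314 and 0.0339) and no member was called against starvation. Metformin arrays lay above all normal growth arrays in 7 sterol and 3 fatty acid arm genes (16.8% of all genes) and below them in 2 and 7 (19.0%). Median changes were -0.04 in the sterol arm and -0.07 in the fatty acid arm against starvation (all genes -0.03), and 0.06 and -0.11 against normal growth (all genes -0.02). The 3 comparisons share arrays by pairs and are not independent of each other. Calls lost on leaving out 1 array have to be read against all genes: against starvation, 0 of 18417 named genes were called without starved A, B or C or metformin A, and 3.11% and 3.90% without metformin B and C. Against normal growth, 1.95%, 2.01% and 2.22% were called without normal growth A, B and C, and 6.60%, 8.81% and 13.8% without metformin A, B and C, where 12.5% were called with all arrays.

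**Figure D2:**
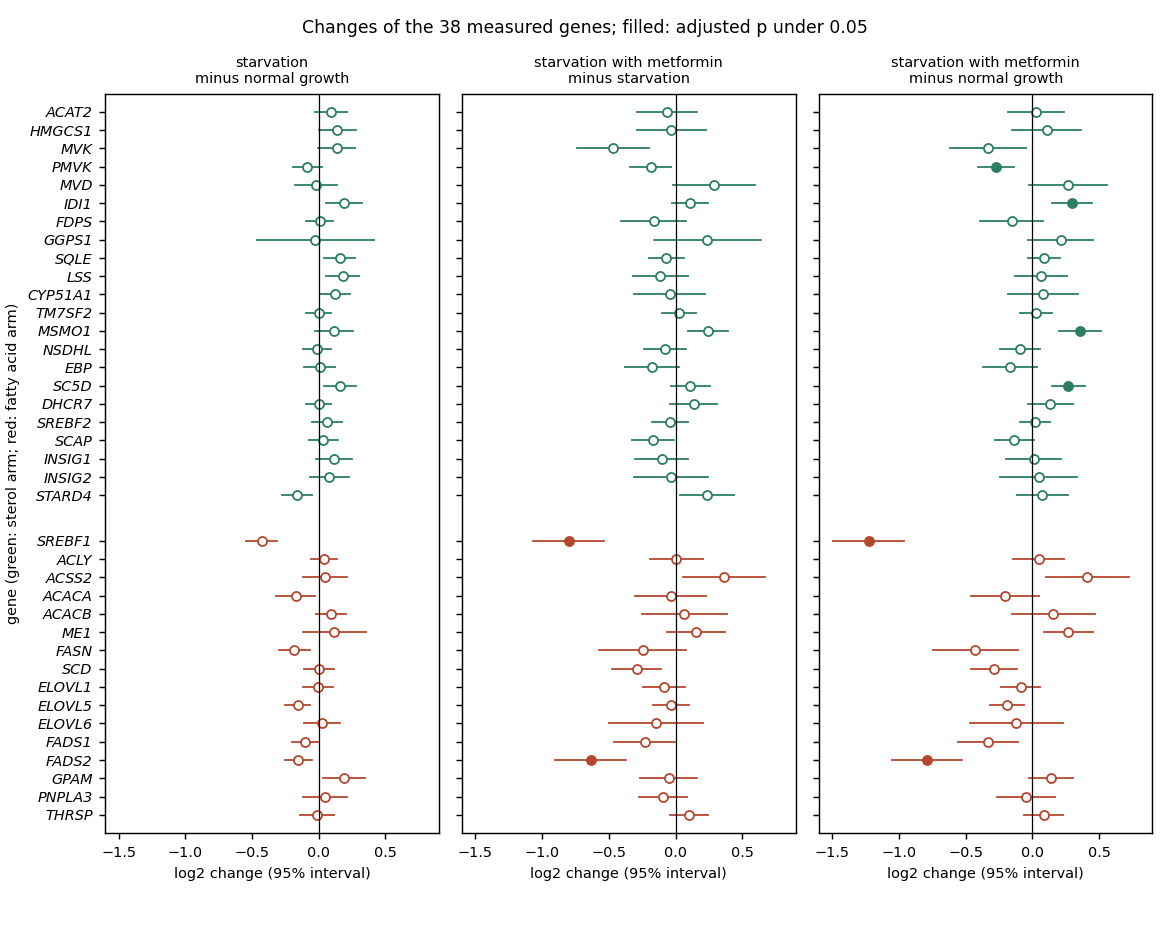
Log2 change of each of the 38 genes (points) with its 95% interval from limma (lines) in the 3 comparisons; filled points passed an adjusted p under 0.05. Of the 8 filled points, 4 belong to SREBF1 and FADS2, each below 0 in both metformin panels, and 4 to sterol arm genes in the panel against normal growth, IDI1, MSMO1 and SC5D above 0 and PMVK below it.

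SREBF1 encodes the SREBP1 isoforms, which its single probe set does not separate. Its log2 values were 8.68, 8.57 and 8.63 under normal growth, 8.21, 8.17 and 8.21 under starvation and 7.32, 7.63 and 7.24 with metformin. Each starved array lay below each normal growth array and above each metformin array. The change with starvation was -0.43 (SE 0.05), and it missed the threshold (adjusted p = 0.0585 from limma). With metformin the level fell by 0.80 (SE 0.11) against starvation, a 1.74-fold lower level (adjusted p = 0.024), and by 1.23 (SE 0.11) against normal growth, 2.34-fold (adjusted p = 0.00581). The call against starvation was lost when starved A (adjusted p = 0.12), starved B (0.0801), starved C (0.124) or metformin A (0.0915) was left out, and kept without metformin B or C. The call against normal growth held without any single array (adjusted p between 0.00663 and 0.0425). With starvation, the threshold was passed when dim probe sets were removed (adjusted p = 0.0219) and with trended and robust variances (0.0257).

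SREBF2 and the escort and anchors of both SREBPs had no call by limma in any comparison. SREBF2 had 9.49, 9.46 and 9.44 under normal growth, 9.51, 9.49 and 9.59 under starvation and 9.48, 9.51 and 9.47 with metformin. These groups overlapped, and the 95% interval of the change with metformin against normal growth ran from -0.09 to 0.14, beside -1.50 to -0.96 for SREBF1. SCAP, the escort, had means of 10.49 ± 0.04, 10.52 ± 0.03 and 10.35 ± 0.08 (SD, n = 3 arrays each) in the same order, and its metformin arrays lay below the starved ones (log2 change -0.17, adjusted p = 0.211 from limma). INSIG1, an anchor of SCAP and itself a target of SREBPs, had means of 10.73, 10.85 and 10.74. INSIG2, the other anchor, had 7.14, 7.22 and 7.19, with metformin arrays from 6.96 to 7.39. INSIG1 lay higher on every starved array than on any normal growth array (change 0.11, adjusted p = 0.701), and its metformin arrays spanned from 10.62 to 10.89. All 4 genes had changes above 0 with starvation (0.04 to 0.11) and below 0 with metformin against starvation (-0.17 to -0.03), and limma, its trended and robust form and the methods' t-test called none of them. Unadjusted p lay under 0.05 for SCAP with metformin against starvation and in no other case. Against normal growth 3 of 4 had changes above 0, and 1 of 4 after shifting arrays to a common median.

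Of 5 measured proteases, cofactors and ubiquitin ligases that handle SREBPs or their regulators, 0 were called with starvation and 0 with metformin against starvation. Against normal growth 1 was lower with metformin, where 6.36% of all genes were called lower. This was RNF145, a ubiquitin ligase of the endoplasmic reticulum, with 9.14, 8.96 and 9.01 under normal growth, 8.84, 8.82 and 8.84 under starvation and 8.80, 8.72 and 8.70 with metformin. It fell by 0.30 (SE 0.07, adjusted p = 0.0481 from limma) against normal growth, a call that was lost without any 1 of the arrays normal growth A (0.144), B (0.104) and C (0.136) and metformin A (0.0764), B (0.12) and C (0.0766). It was also lost after shifting arrays to a common median (0.0586) and by the methods' t-test (0.0913). Unadjusted p lay under 0.05 for 1 of the 5 with starvation (RNF145, change -0.20) and for 1 with metformin against starvation (MBTPS2, a protease that cuts SREBPs, 0.21), and the trended and robust fit and the methods' t-test called 0 in both. MBTPS1, the other protease, had means between 10.50 and 10.60 in the 3 groups.

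Desaturases put double bonds into fatty acids. FADS2, the delta-6 desaturase of the polyunsaturated pathway, had 11.98, 11.93 and 11.93 under normal growth, 11.79, 11.79 and 11.81 under starvation and 11.06, 11.39 and 11.02 with metformin. As for SREBF1, the 3 conditions did not overlap, and metformin B lay nearest to the starved arrays. The level with metformin fell by 0.64 against starvation (SE 0.11, 1.56-fold, adjusted p = 0.0361 from limma) and by 0.79 against normal growth (SE 0.11, 1.73-fold, adjusted p = 0.0133), and the change with starvation was -0.15 (adjusted p = 0.355). The call against starvation was lost without starved A (adjusted p = 0.145), B (0.108) or C (0.155) and without metformin A (0.121) or C (0.0651), and after shifting arrays to a common median (0.0509). The call against normal growth was lost without normal growth A (0.072), B (0.0681) or C (0.066).

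FADS1, the delta-5 desaturase, lies head to head with FADS2 in RefSeq with overlapping spans, and the positions of the probes within them were not used here. Its values were 11.80, 11.78 and 11.75 under normal growth, 11.69, 11.66 and 11.68 under starvation and 11.32, 11.64 and 11.37 with metformin, again without overlap between conditions. The changes were -0.10 (adjusted p = 0.611 from limma) with starvation, -0.23 (0.248) with metformin against starvation and -0.33 (SE 0.09, 0.0863) against normal growth. SCD, the delta-9 desaturase that makes monounsaturated fatty acids, had 12.15, 12.11 and 12.16, then 12.15, 12.10 and 12.19, then 11.80, 11.98 and 11.78. Normal growth and starvation overlapped (change 0.00), and the 3 metformin arrays lay below all others (change -0.29 against each, adjusted p = 0.096 against starvation and 0.0591 against normal growth).

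Fatty acid synthase, FASN, builds palmitate from malonyl-CoA. It had 9.66, 9.58 and 9.62 under normal growth, 9.46, 9.38 and 9.46 under starvation and 9.15, 9.47 and 8.95 with metformin. Starved arrays lay below normal growth (change -0.18, SE 0.05, adjusted p = 0.327 from limma), whereas the metformin arrays were spread widely and metformin B lay at the level of the starved arrays. The change with metformin was -0.25 (SE 0.13, adjusted p = 0.378) against starvation and -0.43 (SE 0.13, adjusted p = 0.111) against normal growth. Without metformin B, limma called FASN (adjusted p = 0.0316), FADS1 (0.0248) and SCD (0.0327) lower than under normal growth, besides SREBF1 and FADS2, so that 5 of 16 members of the arm instead of 2 passed, where 4.60% of all genes were called lower in that fit and 6.36% with all arrays.

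The elongases lengthen fatty acids. ELOVL5, which acts on polyunsaturated fatty acids, had 12.04, 12.03 and 12.04 under normal growth, 11.90, 11.86 and 11.88 under starvation and 11.85, 11.91 and 11.79 with metformin. Its change was already -0.16 (SE 0.04, adjusted p = 0.303 from limma) with starvation, the metformin arrays overlapped the starved ones (change -0.03, adjusted p = 0.798), and the change against normal growth was -0.19 (adjusted p = 0.0818). ELOVL1, for very long saturated chains, had group means of 10.83, 10.83 and 10.74, and ELOVL6, which lengthens palmitate to stearate, 9.29, 9.31 and 9.17 with metformin arrays from 8.92 to 9.48. FASN, the desaturases and the elongases had changes below 0 in 5 of 7 genes with starvation (median -0.10), in 7 of 7 with metformin against starvation (median -0.23, 1 called) and in 7 of 7 against normal growth (median -0.29, 1 called). With trended and robust variances, 4 of the 7 were called against normal growth (ELOVL5, FADS1, FADS2 and SCD), all lower, where this fit called 8.29% of all genes lower.

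**Figure D3:**
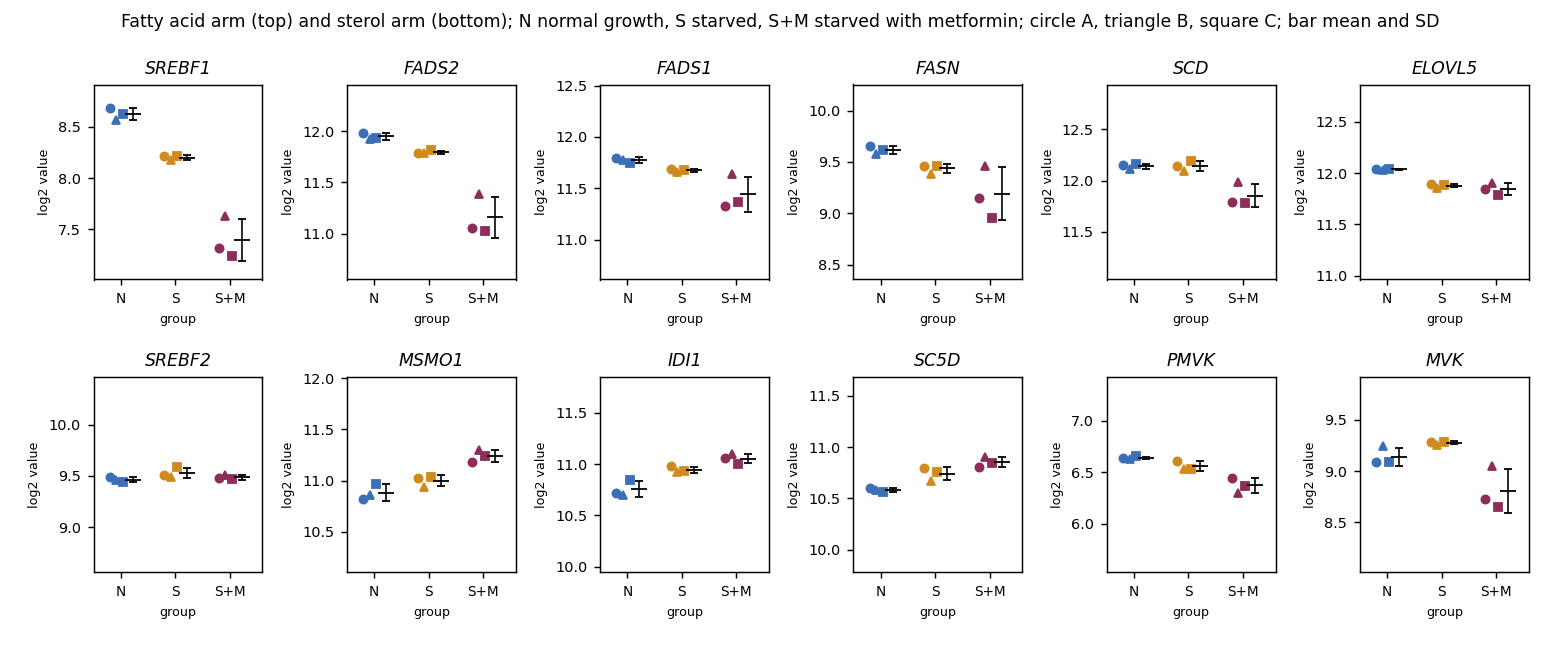
Log2 values of 6 fatty acid arm genes (top) and 6 sterol arm genes (bottom) on each array, with the mean and SD of each group of 3; every panel spans the same log2 range. SREBF1, FADS2 and FADS1 step down from normal growth to starvation to metformin, with metformin B (triangle) the highest of its group, and SREBF2 stays level.

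The enzymes that supply acetyl-CoA, malonyl-CoA and NADPH had no call by limma in any comparison. Unadjusted p lay under 0.05 for ACACA with starvation, ACSS2 with metformin against starvation, and ACSS2 and ME1 against normal growth, the methods' t-test called none, and the trended and robust fit called ME1 against normal growth. ACSS2, which makes acetyl-CoA from acetate, had 9.60, 9.68 and 9.79 under normal growth, 9.77, 9.67 and 9.79 under starvation and 9.94, 10.37 and 9.99 with metformin, so that the metformin arrays lay above all others. Its changes were 0.36 (SE 0.13, adjusted p = 0.184 from limma) against starvation and 0.41 (SE 0.13, 0.116) against normal growth, and metformin B stood far above the rest of its group. ME1, the cytosolic malic enzyme that yields NADPH, had a change of 0.27 (SE 0.07, adjusted p = 0.0841) against normal growth, with metformin arrays at 10.93, 10.83 and 10.92 against 10.70, 10.49 and 10.68. ACLY, which makes cytosolic acetyl-CoA from citrate, had means of 10.93, 10.97 and 10.98. ACACA, the acetyl-CoA carboxylase of the cytosol, had means of 8.95, 8.78 and 8.74 and starved arrays below normal growth (change -0.17, SE 0.06, adjusted p = 0.517). ACACB, the carboxylase of the outer mitochondrial membrane, had 8.07, 8.16 and 8.22, with metformin arrays from 7.95 to 8.45. With metformin against starvation 4 of these 5 genes had changes above 0 (3 of 5 after shifting arrays to a common median, where ACLY turned), where all 7 genes of synthesis, elongation and desaturation had changes below 0.

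GPAM, the mitochondrial acyltransferase that opens glycerolipid synthesis, had 8.42, 8.42 and 8.44 under normal growth, 8.69, 8.49 and 8.68 under starvation and 8.67, 8.59 and 8.46 with metformin. All arrays of both starved groups lay above normal growth (changes 0.19 with adjusted p = 0.491 and 0.14 with adjusted p = 0.282 from limma), and it was the 1 fatty acid arm gene higher with starvation at an unadjusted p under 0.05. PNPLA3, a lipid droplet protein induced by SREBP1 in liver, and THRSP, a lipogenic accessory protein, lay below every array median, at 5.46 to 5.74 and 5.08 to 5.27, a range in which background compresses differences. Neither had a change beyond 0.10 in any comparison.

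Mevalonate pathway enzymes turn acetyl-CoA into isoprenoid units. IDI1, the isopentenyl diphosphate isomerase, had 10.72, 10.70 and 10.85 under normal growth, 10.98, 10.92 and 10.93 under starvation and 11.06, 11.10 and 11.00 with metformin, without overlap between conditions. Against normal growth it rose by 0.30 with metformin (SE 0.06, 1.23-fold, adjusted p = 0.0396 from limma), and the change with starvation was 0.19 (adjusted p = 0.406). PMVK, the phosphomevalonate kinase, ran the other way with 6.64, 6.63 and 6.65, then 6.61, 6.53 and 6.53, then 6.44, 6.30 and 6.37. Its level fell by 0.27 (SE 0.06, 1.21-fold, adjusted p = 0.0374) with metformin against normal growth. The IDI1 call was lost without normal growth A (0.149), B (0.146) or C (0.0719) and without metformin A (0.0958) or B (0.1), and after shifting arrays to a common median (0.0569). The PMVK call was lost without normal growth A (0.135), B (0.129) or C (0.131) and without metformin B (0.0797) or C (0.0547), and with trended and robust variances (0.0534).

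MVK, the mevalonate kinase, had 9.09, 9.24 and 9.09 under normal growth, 9.28, 9.26 and 9.29 under starvation and 8.73, 9.05 and 8.65 with metformin. It was highest on the starved arrays and lowest on the metformin arrays, with a change of -0.47 (SE 0.11, adjusted p = 0.0804 from limma) with metformin against starvation and -0.33 (adjusted p = 0.153) against normal growth. Without metformin B both passed (adjusted p = 0.033 and 0.0413). MVD, the decarboxylase of the pathway, had the opposite sign, with means of 9.35 ± 0.06, 9.33 ± 0.09 and 9.62 ± 0.23 (SD, n = 3 arrays each) and metformin B at 9.88 (changes 0.29 with adjusted p = 0.285 and 0.27 with adjusted p = 0.261). HMGCS1, the cytosolic HMG-CoA synthase, had means of 11.85, 11.99 and 11.96, with starved arrays above normal growth (change 0.14, adjusted p = 0.613) and metformin arrays from 11.81 to 12.17. ACAT2, which joins acetyl-CoA units, had 10.12, 10.21 and 10.14, FDPS, the farnesyl diphosphate synthase, 10.42, 10.43 and 10.27, and GGPS1, which makes geranylgeranyl diphosphate, 6.74, 6.72 and 6.95. Of the 38 genes, GGPS1 had the widest spread within a group, with starved A highest and starved B lowest at 6.37. Of these 8 enzymes, 1 rose and 1 fell against normal growth with metformin, and limma called 0 in the other comparisons. Unadjusted p lay under 0.05 for HMGCS1 and IDI1 with starvation, both higher, and for MVK and PMVK with metformin against starvation, both lower, and the methods' t-test called 0 in each.

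Squalene and post-squalene enzymes complete cholesterol. MSMO1, a methylsterol oxidase, had 10.82, 10.86 and 10.97 under normal growth, 11.02, 10.94 and 11.04 under starvation and 11.18, 11.30 and 11.24 with metformin. The metformin arrays lay above all others. It rose by 0.36 (SE 0.06, 1.28-fold, adjusted p = 0.0268 from limma) against normal growth, and the change against starvation was 0.24 (SE 0.06, adjusted p = 0.0947). SC5D, a sterol desaturase, had 10.60, 10.58 and 10.56, then 10.79, 10.67 and 10.75, then 10.81, 10.90 and 10.84, without overlap between conditions. It rose by 0.27 (SE 0.05, 1.21-fold, adjusted p = 0.0288) with metformin against normal growth, where the change with starvation was 0.16 (adjusted p = 0.43) and the further change with metformin 0.11 (0.384). The MSMO1 call was lost without normal growth A (0.111), B (0.111) or C (0.0645) and without metformin A (0.0515) or B (0.0702). The SC5D call was lost without normal growth A (0.107), B (0.111) or C (0.111) and without metformin B (0.0658), and after shifting arrays to a common median (0.0584).

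The other enzymes of the segment were not called. SQLE, the squalene epoxidase, had 10.32, 10.39 and 10.40 under normal growth, 10.54, 10.57 and 10.47 under starvation and 10.45, 10.47 and 10.44 with metformin. LSS, which closes the sterol rings, had 11.06, 11.05 and 11.11, then 11.25, 11.20 and 11.31, then 11.11, 11.29 and 11.02. CYP51A1, the lanosterol demethylase, had means of 10.89, 11.01 and 10.97. In these 3 genes every starved array lay above every normal growth array, with changes of 0.16, 0.18 and 0.12 (adjusted p = 0.433, 0.371 and 0.572 from limma). Its second probe set gave CYP51A1 a flatter profile, with means of 10.68, 10.70 and 10.73. DHCR7, the last reductase, had 11.33, 11.32 and 11.46, with metformin arrays above the starved ones (change 0.14, adjusted p = 0.364). NSDHL (11.14, 11.13 and 11.05) and EBP (10.69, 10.70 and 10.53), which remove a carboxyl group and shift a double bond, had their lowest means with metformin, with overlap. TM7SF2, a sterol reductase, stayed between 6.86 and 6.94. The probe set shared by HSD17B7 and HSD17B7P2 had means of 9.23, 9.22 and 9.50. Of the 9 enzymes, limma and the methods' t-test called 0 with starvation, where SQLE, LSS, CYP51A1 and SC5D were higher at unadjusted p values under 0.05 and none was lower (median change 0.12). With metformin 0 of 9 passed against starvation, with unadjusted p under 0.05 for MSMO1 alone, and 2 against normal growth (medians -0.04 and 0.08).

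STARD4 carries cholesterol between membranes. It had 9.79, 9.82 and 9.84 under normal growth, 9.66, 9.60 and 9.70 under starvation and 9.90, 10.02 and 9.75 with metformin. The starved arrays lay below both other groups, which overlapped, with changes of -0.16 (adjusted p = 0.379 from limma) with starvation and 0.24 (adjusted p = 0.183) with metformin against starvation. Its sign with starvation was opposite to that of most sterol synthesis enzymes.

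Within groups, the members moved with single arrays. Metformin B was the highest of its group in 31 of the 38 genes, 18 of 22 in the sterol arm and 13 of 16 in the fatty acid arm, where it was the highest in 26.1% of all named genes. Metformin C was the lowest in 24 of 38 (37.2% of all genes), and starved B the lowest of its group in 27 of 38, among them 14 of 16 fatty acid arm genes (40.7% of all genes). Relative to each gene's mean over the 9 arrays, the median of the sterol arm was -0.03, -0.02 and -0.03 under normal growth, 0.04, 0.01 and 0.04 under starvation and -0.01, 0.11 and -0.12 with metformin A, B and C. The median of the fatty acid arm was 0.04, 0.04 and 0.09, then 0.04, -0.02 and 0.05, then -0.06, 0.05 and -0.17. Over all named genes these medians lay between -0.02 and 0.01. On metformin B and C the medians of both arms moved the same way, so that the range among the metformin arrays exceeded the difference between conditions in either arm's median. What sets metformin B apart was not tested.

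**Figure D4:**
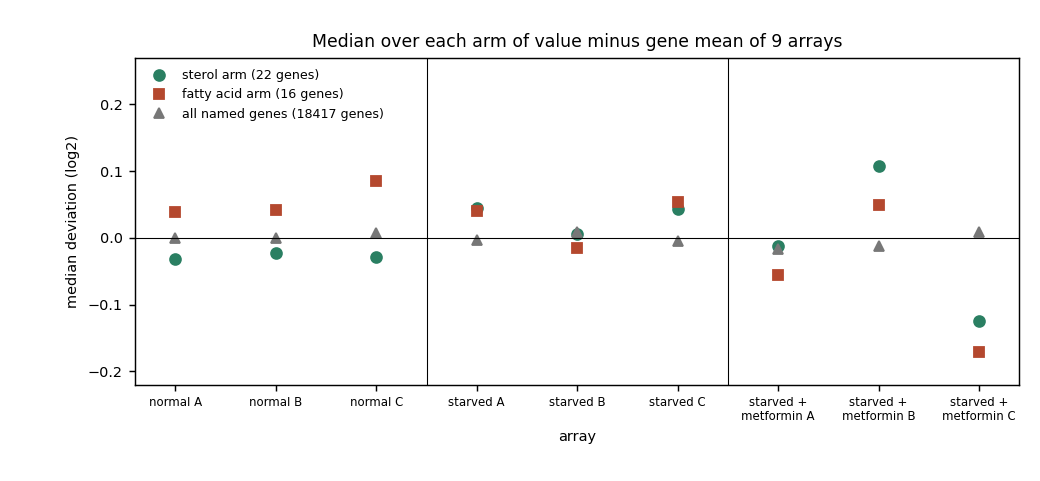
Median over each arm, and over all named genes, of the log2 value minus the gene's mean of 9 arrays, 1 position per array. The sterol arm (circles) lies below the fatty acid arm (squares) on the 3 normal growth arrays and above it on the 3 metformin arrays, while both arms are high on metformin B and low on metformin C.

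Among other pathway genes, the LXR receptor gene NR1H3 and LXR target genes were read because LXR acts on SREBF1. Of 6 measured genes (NR1H2 was not analysed here), 0 were called with starvation, 1 fell with metformin against starvation and 3 fell against normal growth (medians -0.23, -0.16 and -0.42), where 0.163%, 2.89% and 6.36% of all genes were called lower. With starvation, unadjusted p lay under 0.05 for ABCA1, LPCAT3 and MYLIP, and LPCAT3 was called by the trended and robust fit, by the methods' t-test and after quantile normalization was repeated. The methods' t-test called 0 of 6 with metformin. ABCA1, a cholesterol exporter, had 7.12, 6.84 and 6.96 under normal growth, 6.54, 6.39 and 6.60 under starvation and 5.62, 5.97 and 5.36 with metformin. It fell by 0.86 (SE 0.16, adjusted p = 0.0441 from limma) against starvation, and its change against normal growth was -1.32 (SE 0.16, 2.51-fold lower, adjusted p = 0.011), with no overlap between conditions. Its 3 metformin arrays lay below the array medians. LPCAT3, which loads polyunsaturated chains onto phospholipids, had 11.21, 11.17 and 11.19, then 10.84, 10.79 and 10.82, then 10.34, 10.78 and 10.40. It fell by 0.69 (SE 0.12, adjusted p = 0.0252) against normal growth, and the change with starvation, -0.37, missed the threshold (adjusted p = 0.0538). ABCG1, another exporter, whose mean over the 9 arrays lay below the array medians, fell by 0.56 (SE 0.09, adjusted p = 0.0222) against normal growth. NR1H3 itself, below every array median, had changes of -0.05, 0.03 and -0.03. MYLIP had means of 7.76, 7.49 and 7.48. SMPDL3A, the remaining target gene, ran the other way with means of 7.13, 7.28 and 7.30 and was not called. All its arrays in both starved groups lay above normal growth. The ABCA1 call against starvation was lost without starved A (0.169), B (0.108) or C (0.175) or without metformin A (0.142) or C (0.0588) and after shifting arrays to a common median, and against normal growth without normal growth A (0.0612), B (0.0541) or C (0.0592). The ABCG1 call was lost without normal growth A (0.0892), B (0.0555) or C (0.0946) or without metformin A (0.066) or B (0.0664). The LPCAT3 call was lost without normal growth A (0.105), B (0.0993) or C (0.1) or without metformin A (0.0678) or C (0.0521).

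Of 21 other genes of fatty acid and glycerolipid synthesis, 0 were called with starvation and 2 fell with metformin against each group. Of all genes, 2.89% were called lower against starvation and 6.36% against normal growth. In each comparison 12 of the 21 had changes above 0. The elongases ELOVL4 (means of 9.11, 9.19 and 9.35) and ELOVL7 (10.23, 10.30 and 10.35) were among these and were not called. The largest differences with starvation were ELOVL2 at 0.20 (adjusted p = 0.701 from limma) and ELOVL3 at -0.20 (0.256), and unadjusted p lay under 0.05 for ELOVL3 alone. The trended and robust fit and the methods' t-test also called 0 with starvation. ELOVL2 and ELOVL3, elongases of very long chain polyunsaturated and saturated fatty acids respectively, were the ones called with metformin. ELOVL3 had 9.14, 9.12 and 9.05 under normal growth, 8.91, 8.87 and 8.93 under starvation and 7.25, 8.02 and 7.19 with metformin, with changes of -1.41 (SE 0.22, 2.66-fold lower, adjusted p = 0.0314) against starvation and -1.61 (SE 0.22, 3.06-fold lower, adjusted p = 0.0141) against normal growth. ELOVL2 had 5.96, 6.02 and 5.90, then 6.27, 5.96 and 6.26, then 4.90, 5.17 and 5.08, with changes of -1.11 (SE 0.12, adjusted p = 0.0165) and -0.91 (SE 0.08, adjusted p = 0.00583), with normal growth and starvation overlapping. The ELOVL3 calls were lost against starvation without starved A (0.133), B (0.1) or C (0.145) or without metformin A (0.109) or C (0.0592), and against normal growth without normal growth A (0.0737), B (0.0714) or C (0.0677). The ELOVL2 call against starvation was lost without starved A (0.103), B (0.0564) or C (0.107) or without metformin A (0.0698), and the call against normal growth held without any single array. By the methods' t-test ELOVL2 alone kept its call, against normal growth.

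**Figure D5:**
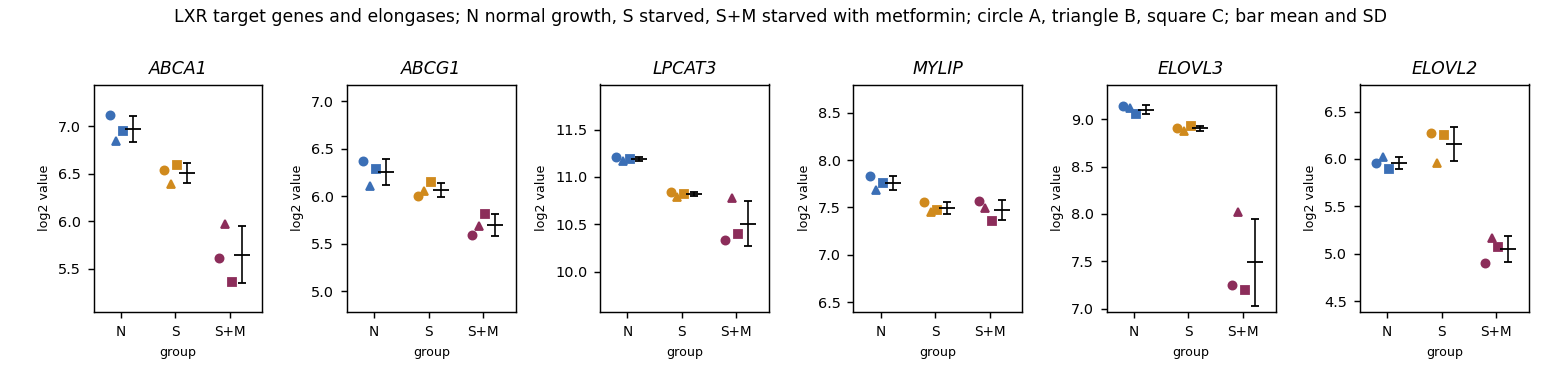
Log2 values of 4 LXR target genes and 2 elongase genes on each array, with the mean and SD of each group of 3; every panel spans the same log2 range. ABCA1, LPCAT3 and ELOVL3 step down over the 3 conditions with metformin B (triangle) the highest of its group, MYLIP is lower in both starved groups, and ELOVL2 is lower only in the metformin group.

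Of 8 other sterol genes, 0 were called with starvation or with metformin against starvation. Against normal growth 1 rose with metformin, where 6.16% of all genes were called higher. This was ACAT1, the mitochondrial acetoacetyl-CoA thiolase, with 10.09, 10.03 and 9.97 under normal growth, 10.25, 10.19 and 10.27 under starvation and 10.44, 10.41 and 10.35 with metformin. It rose by 0.37 (SE 0.06, adjusted p = 0.0169 from limma), a call lost without normal growth A (0.0662), B (0.0792) or C (0.0754). SOAT1, which esterifies cholesterol for storage, had a change of 0.23 with starvation (SE 0.05, adjusted p = 0.198), the largest of the list in that comparison, and ACAT1 0.21. With metformin against starvation the largest were AACS, the acetoacetyl-CoA synthetase, at -0.19 (adjusted p = 0.288) and ACAT1 at 0.16 (0.184). Unadjusted p lay under 0.05 for 3 genes that were higher with starvation and for ACAT1 with metformin against starvation, and the trended and robust fit and the methods' t-test called 0 in both.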

How the data were processed

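Total RNA of NCI-H295R cells was measured on 9 single-colour GeneChip Human Gene 1.0 ST arrays. The authors deposited log2 expression values, 1 column per array. Per the submitters' processing notes, RMA, limma and Affymetrix Expression Console were used, and Affymetrix Power Tools appears in the methods of the paper, without versions that the sources used here give. RMA subtracts background, forces the probe distributions of the arrays to be alike and condenses probes into 1 value per probe set, which can shrink differences of dim genes. No further normalization was applied.

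Groups were taken from the sample labels and compared with limma (version 3.58.1, under R 4.3.3; lmFit, then eBayes). Each fit held only the arrays of its own comparison, no block, and Benjamini-Hochberg adjustment over all 33297 probe sets. In the array's annotation 19460 probe sets carry 1 symbol, 1754 carry several and 12083 carry none. Probe sets with 1 symbol give 18417 genes, 769 of them with several probe sets, of which the brightest was used. All members are named, of the other pathway lists those called or the 2 with the largest change in a comparison where none was called, and of the cell type markers those called. Other genes named here were picked with their values in view. The members are a given list, and the other lists were written with earlier results of these data known. All 3 arrays of a group had identical values in 2.02%, 1.43% and 0.868% of probe sets for normal growth, starvation and metformin, and in no member. Some members had the same value on a pair of arrays, as SREBF1 on starved A and C (8.2122) and FADS2 on starved A and B (11.7868). The effect of such ties on the calls was not tested. The limma step was tested on simulated data.

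Promoter sequences are RefSeq's (GRCh38.p14), with 50 windows for 36 of the 41 members. Alternatives comprised dropping probe sets dimmer than percentile 40, averaging a gene's probe sets, repeating quantile normalization, aligning array medians and fitting the 9 arrays jointly. Others were trended and robust variances, the methods' t-test (equal variances), a block for the replicate letter, and omission of single arrays. For its arrays the paper names R with Bioconductor packages and no t-test.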

Additional observations from a re-analysis of the deposited data

How the results depend on the processing

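No called change turned its sign. Of the 38 members, 12 with starvation, 8 with metformin against starvation and 10 against normal growth turned sign under at least 1 alternative, all with changes of at most 0.05, 0.07 and 0.12 in size. With starvation, the sterol arm stayed at 0 called genes, and the fatty acid arm went from 0 to 1 (SREBF1) without dim probe sets and with trended and robust variances, and stayed at 0 without each array. With metformin against starvation, the sterol arm went from 0 to 2 in the fit of all 9 arrays and with trended and robust variances, to 1 without dim probe sets, and to between 0 and 1 without each array. The fatty acid arm went from 2 to 3 (with SCD) in the fit of all 9 arrays and with trended and robust variances, to 1 with arrays at a common median, to 0 by the methods' t-test and with the replicate block, and to between 0 and 2 without each array. With metformin against normal growth, the sterol arm went from 4 to 2 with arrays at a common median, to 1 by the methods' t-test, to 0 with the replicate block, and to between 0 and 3 without each array. The fatty acid arm went from 2 to 6 in the fit of all 9 arrays, without dim probe sets and with trended and robust variances, to 1 by the methods' t-test, to 0 with the replicate block, and to between 1 and 5 without each array. Over all named genes the share called also moved with the setting. Against starvation it was 6.03%, and 13.6% with all 9 arrays, 14.6% without dim probe sets, 9.74% with trended and robust variances, 2.66% at a common median and 2.76% by the methods' t-test. Against normal growth it was 12.5%, and 17.5%, 24.3%, 16.1%, 10.7% and 6.14% in the same order. With starvation it was 0.228%, and 0.928% without dim probe sets and 0.608% with trended and robust variances. The replicate block called 0 genes in each comparison. Leaving out an array or adding the block leaves fewer degrees of freedom, and for the other settings the cause was not tested. The labels do not say whether the letters pair the arrays, and the paper names 3 independent experiments without linking them to letters. For starvation and normal growth, correlations of deviations were 0.09, 0.13 and 0.02 between arrays of the same letter and -0.11 to 0.04 between different letters. For metformin and starvation they were 0.29, -0.14 and -0.25 against -0.38 to 0.44. For metformin and normal growth they were -0.09, 0.01 and -0.16 against -0.11 to 0.18. With 3 letters these values do not settle whether the arrays are paired. Single-gene values under the alternatives were counted for members at an unadjusted p under 0.05 and for called genes of the other lists, markers included. Of these values, 5 of 210 with starvation, 58 of 238 with metformin against starvation and 95 of 364 against normal growth lost a call, and 2, 8 and 16 gained one. All 5 losses with starvation were of the marker HSD3B2. Genes near or below the array medians, such as PNPLA3, THRSP, PMVK, ABCA1 and ELOVL2, lie where background compresses differences, and 3 arrays per group limit the rest.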
